A study of Mus musculus with 2 samples.

Results

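The genes described here are the Ighv genes, which encode the variable part of the immunoglobulin heavy chain, and they were read in plasma cells from the optic nerves of mice with an optic glioma. Members were all symbols that begin with Ighv in the gene lists of both libraries: 183 symbols on 185 of the 32285 rows, of which 2 symbols (Ighv1-13 and Ighv5-8) occupied 2 rows each. The annotation calls 113 of them functional V genes and 69 pseudogenes, and 1 carries another biotype. In plasma cells 136 of the 183 had at least 1 UMI (a unique molecular identifier, which marks 1 captured RNA molecule) in either library, 86 had one in both, and 47 had none. By library, 135 had a UMI in the vancomycin plasma cells and 87 in those of the control.

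All mice were Nf1-OPG mice (Nf1flox/neo; GFAP-Cre). They carry a neomycin cassette in 1 Nf1 allele in all cells and lose the other, floxed allele where the GFAP promoter drives Cre, in neuroglial progenitors, so the control mice carried the same tumour-prone genotype. The vancomycin group was treated with vancomycin, an antibiotic that acts on gut bacteria when given by mouth (the labels state no route), and the control group with PBS, from 6 to 12 weeks of age. Each group is 1 10x 5′ library of cells pooled from 10 mice aged 12 weeks. The protocol text describes optic nerves and meningeal dura collected separately, and both libraries are labelled optic nerve. There is 1 library per group, so no difference below has a replicate check and none carries a p-value; intervals are exact 95% intervals that cover counting error only. Cells are not tied to single mice in the labels.

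An antibody heavy chain is assembled in a developing B cell by joining 1 Ighv gene to a D and a J segment upstream of the constant genes, and the other allele is normally kept silent, so a plasma cell usually expresses a single Ighv gene. Class switching later exchanges the constant gene, for example from Ighm to Igha (IgA, the main antibody of the gut mucosa) or to an Ighg gene (IgG), while the assembled V segment stays. Cells that descend from the same B cell keep the same heavy and light variable genes, although somatic mutation changes single bases in them. Plasma cells are the secreting end stage of this lineage, and IgA plasma cells are known from the gut and from the meninges.

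Plasma cells were barcodes with at least 3 UMIs of Mzb1 (a chaperone of antibody assembly) and at least 2 UMIs summed over Derl3, Tnfrsf17, Sdc1 and Prdm1. They numbered 999 of 15726 kept cells in the vancomycin library (6.35%, interval 5.98 to 6.75) and 95 of 4108 in the control (2.31%, 1.87 to 2.82). Their median depth was 23406 and 27583 UMIs per cell. The summed level of the 10 plasma cell markers was 45295 CPM (UMIs scaled to a fixed total per library) in vancomycin plasma cells and 49206 CPM in the control plasma cells, against 531 and 475 CPM in all other kept cells. The libraries differed in other cells as well: the 5 oligodendrocyte markers summed to 22859 CPM in the non-plasma cells of the vancomycin library and 105 CPM in those of the control, although both are labelled optic nerve. Within plasma cells the same list stood at 1739 and 20.7 CPM, with Mog at 0 UMIs in the control, and 62.6% and 11.6% of plasma cells had at least 2 UMIs of it; the T cell list reached 2 UMIs in 23.5% and 26.3% of plasma cells and the microglia list in 36.7% and 43.2%. The libraries had 100 cell barcodes in common, and no barcode was a plasma cell in both.

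The V exon sequences of the genes that the results turn on are shown because many cells had UMIs on both members of a related pair. They are 300 bases in coding direction from the annotated V exon (GENCODE M21 transcripts, GRCm38, which is mm10), all from the minus strand of chromosome 12: Ighv1-81 (chr12:115920284-115920583), Ighv1-77 (chr12:115861872-115862171), Ighv1-66 (chr12:115593115-115593414), Ighv1-84 (chr12:115980707-115981006), Ighv1-19 (chr12:114708653-114708952), Ighv1-21-1 (chr12:114736250-114736549) and Ighv8-12 (chr12:115647957-115648256). The first 6 form 3 pairs, and capitals mark the bases at which a gene differs from the other member of its pair. Ighv8-12 has no such partner here and is printed without capitals.
Ighv1-81: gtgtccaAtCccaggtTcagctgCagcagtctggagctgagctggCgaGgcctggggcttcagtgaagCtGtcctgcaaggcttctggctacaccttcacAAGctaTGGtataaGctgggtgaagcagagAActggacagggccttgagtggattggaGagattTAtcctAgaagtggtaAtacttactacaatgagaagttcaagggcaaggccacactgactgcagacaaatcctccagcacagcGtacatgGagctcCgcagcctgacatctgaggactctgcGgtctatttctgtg
Ighv1-77: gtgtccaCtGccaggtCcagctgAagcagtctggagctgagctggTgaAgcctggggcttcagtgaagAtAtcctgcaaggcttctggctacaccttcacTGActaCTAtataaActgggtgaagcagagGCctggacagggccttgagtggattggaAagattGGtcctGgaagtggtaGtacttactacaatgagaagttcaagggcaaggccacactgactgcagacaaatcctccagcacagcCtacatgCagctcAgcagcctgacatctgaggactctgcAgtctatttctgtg
Ighv1-66: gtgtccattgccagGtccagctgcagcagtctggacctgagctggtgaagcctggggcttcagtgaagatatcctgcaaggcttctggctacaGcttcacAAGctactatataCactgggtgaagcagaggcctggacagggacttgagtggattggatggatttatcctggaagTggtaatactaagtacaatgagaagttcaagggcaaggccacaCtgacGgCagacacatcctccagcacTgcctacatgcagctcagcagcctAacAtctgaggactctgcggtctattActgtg
Ighv1-84: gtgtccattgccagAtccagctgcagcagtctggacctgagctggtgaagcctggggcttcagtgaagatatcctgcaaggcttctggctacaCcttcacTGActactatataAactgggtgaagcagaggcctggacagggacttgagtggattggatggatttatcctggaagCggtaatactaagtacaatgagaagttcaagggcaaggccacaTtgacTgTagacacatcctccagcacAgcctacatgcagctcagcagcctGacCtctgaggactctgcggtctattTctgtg
Ighv1-19: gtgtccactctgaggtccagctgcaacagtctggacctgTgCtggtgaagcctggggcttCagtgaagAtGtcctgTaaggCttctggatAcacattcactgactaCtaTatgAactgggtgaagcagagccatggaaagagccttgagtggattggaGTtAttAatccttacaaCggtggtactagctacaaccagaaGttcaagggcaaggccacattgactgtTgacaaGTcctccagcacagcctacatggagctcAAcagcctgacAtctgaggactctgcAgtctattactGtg
Ighv1-21-1: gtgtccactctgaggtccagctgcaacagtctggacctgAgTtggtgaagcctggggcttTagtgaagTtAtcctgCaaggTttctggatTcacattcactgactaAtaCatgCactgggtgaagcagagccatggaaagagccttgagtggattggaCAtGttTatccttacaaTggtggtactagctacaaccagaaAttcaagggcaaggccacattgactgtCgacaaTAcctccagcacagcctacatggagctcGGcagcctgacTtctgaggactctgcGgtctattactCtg
Ighv8-12: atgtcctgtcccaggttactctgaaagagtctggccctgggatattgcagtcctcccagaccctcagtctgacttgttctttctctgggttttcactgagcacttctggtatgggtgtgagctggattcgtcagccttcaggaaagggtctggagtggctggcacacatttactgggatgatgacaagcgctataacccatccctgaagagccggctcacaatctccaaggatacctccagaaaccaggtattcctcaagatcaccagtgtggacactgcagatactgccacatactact
Ighv1-81 and Ighv1-77 differed at 26 of 305 aligned bases (91.5% identical), Ighv1-66 and Ighv1-84 at 14 (95.4%), and Ighv1-19 and Ighv1-21-1 at 25 (91.8%). The genes that led most cells were further apart from each other: Ighv1-81 was 90.2% identical to Ighv1-66, 83.9% to Ighv1-19 and 64.5% to Ighv8-12. Among the 4186 pairs of family 1 genes the median identity was 82.8%, and 44 of the 183 genes had a relative at 97% or more.

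Nearly every plasma cell held Ighv RNA, and in most of them 1 gene dominated. The lowest, median and highest number of Ighv UMIs per plasma cell were 0, 1430 and 14630 in the vancomycin library and 3, 3209 and 13425 in the control, and Ighv UMIs made up 9.43% and 14.5% of all UMIs of the plasma cells. A leading gene was called where a gene had the most Ighv UMIs of the cell, at least 10 UMIs and at least 50% of the Ighv UMIs. It was found in 890 of 999 vancomycin plasma cells (89.1%, 87.0 to 91.0) and in 83 of 95 control plasma cells (87.4%, 78.97 to 93.3), and these cells are called led cells below. The leading gene held a median of 82.5% of the Ighv UMIs of a cell in the vancomycin library and 92.7% in the control. Of the 109 and 12 cells with no leading gene, 77 and 9 had 10 or more Ighv UMIs that were divided between genes.

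The vancomycin library used 65 genes as leading genes and the control 23, and 18 led cells in both, which is 27.7% of the vancomycin list and 78.3% of the control list. In all 70 genes led a cell and 113 led none. The difference in number goes with the number of cells: in 80 led cells drawn from each library, the expected number of genes was 25.8 in the vancomycin library and 22.6 in the control. The sets of the 10 most used genes had 4 genes in common (Ighv1-81, Ighv1-19, Ighv1-14 and Ighv2-2).

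Ighv1-81 (chr12:115920279-115920712) was the most used gene of the vancomycin library, and Ighv1-19 (chr12:114708648-114709135) that of the control. Ighv1-81 led 257 vancomycin cells (28.9%, 25.9 to 32.0) and 10 control cells (12.0%, 5.93 to 21.04), a ratio of shares of 2.40 (1.28 to 5.06). Ighv1-19 led 62 vancomycin cells (6.97%, 5.38 to 8.84) and 28 control cells (33.7%, 23.7 to 44.9), a ratio of 0.207 (0.130 to 0.335). The higher share of Ighv1-81 rests on counting it apart from Ighv1-77: with the UMIs of Ighv1-81 and Ighv1-77 summed before the call, which was chosen after seeing the data, the 2 genes led 269 of 952 vancomycin cells (28.3%, 25.4 to 31.2) and 20 of 89 control cells (22.5%, 14.3 to 32.6), a ratio of 1.26 (0.798 to 2.09) whose interval includes 1. With combinations of heavy and light gene counted once, the Ighv1-81 share was lower in the vancomycin library (7.19% and 9.09%). Ighv1-19 summed in the same way with Ighv1-21-1 led 7.77% and 31.5%, a ratio of 0.247 (0.158 to 0.397).

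Ighv1-66 (chr12:115593110-115593591) led plasma cells of the vancomycin library and none of the control. It led 102 cells there (11.5%, 9.44 to 13.7) and none of the 83 control cells, a count of 0 that allows a share of up to 3.61% at a floor of 3 cells (the exact interval reaches 4.35%). Against that floor the share was at least 3.17-fold higher, and the exact interval of the ratio began at 2.53. Its 318710 UMIs in vancomycin plasma cells stood against 0 UMIs in all control plasma cells. With combinations of heavy and light gene counted once, its vancomycin share was 2.99%, below the exact control limit of 4.35%, so no fold is given for that count. Ighv8-12 (chr12:115647945-115648387), a gene of family 8, led 69 vancomycin cells (7.75%, 6.08 to 9.71) and 1 control cell (1.20%, 0.0305 to 6.53), a ratio of 6.43 with a wide interval (1.12 to 258). Counting combinations once turned that direction: the log2 ratio of the Ighv8-12 share was -0.093 with heavy gene, light gene and isotype counted once and -0.75 with heavy and light gene counted once. Ighv1-4 (33 cells), Ighv6-6 (27), Ighv1-9 (25), Ighv1-84 (25), Ighv1-42 (13) and Ighv1-43 (13) also led no control cell, but their vancomycin shares lay below the exact control limit of 4.35%, so no fold is given.

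In the other direction, Ighv1-26 led 7 control cells (8.43%, 3.46 to 16.6) and no vancomycin cell, which allows up to 0.337% there at a floor of 3 cells (0.414% by the exact interval). It had 3105 UMIs in vancomycin plasma cells (125 CPM) and 28844 in control plasma cells (11251 CPM). Ighv1-77 led 4 control cells and 2 vancomycin cells, a ratio of 0.0466 (0.00422 to 0.325) that rests on 6 cells and on counting it apart from Ighv1-81. Ighv5-17 led 11 vancomycin and 4 control cells (1.24% and 4.82%; ratio 0.256, 0.0760 to 1.10), and Ighv1-14, a pseudogene in the annotation, led 28 and 6 (3.15% and 7.23%; ratio 0.435, 0.177 to 1.29). Ighv2-6, Ighv3-2 and Ighv1-20 led 9 to 10 vancomycin cells and 2 control cells each. The intervals of the ratios of Ighv5-17, Ighv1-14, Ighv2-6, Ighv3-2 and Ighv1-20 all include 1. Pseudogenes of the annotation led 61 vancomycin cells (6.85%, 5.28 to 8.72) and 9 control cells (10.8%, 5.08 to 19.6).

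**Figure D1:**
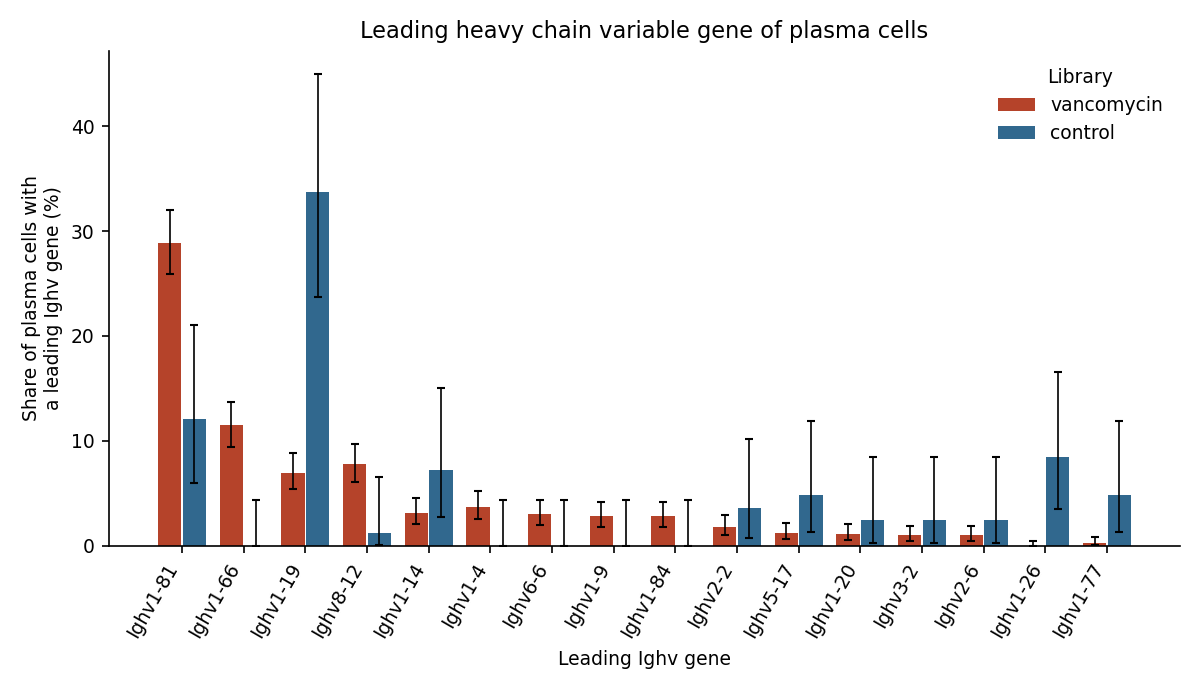
Share of led plasma cells (y axis, %) for each gene among the 10 most used of either library (x axis), vancomycin in red and control in blue; error bars are exact 95% intervals for counting error. Ighv1-81 stands at 28.9% and 12.0%, Ighv1-19 at 6.97% and 33.7%, and Ighv1-66, at 11.5% in the vancomycin library, led no control cell.

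Over the 24 genes that led at least 10 cells in both libraries together, 3 had a share at least 2-fold higher in the vancomycin library (12.5%: Ighv1-66, Ighv8-12 and Ighv1-81) and 7 a share at least 2-fold lower (29.2%). The 7 ranged from Ighv1-19 to Ighv2-2, which lay just inside the limit at a ratio of 0.497 (0.142 to 2.66), and Ighv1-69 lay just outside it at 0.560. The interval excluded 1 in 4 of the 24 genes: above 1 in the 3 higher genes and below 1 in Ighv1-19; that of Ighv1-81 included 1 once it was summed with Ighv1-77. For 13 genes that led no control cell only a lower bound exists, and of them only Ighv1-66 passed 2-fold at the floor. The minimum of 10 cells was passed mainly through the larger vancomycin library. Of the 24 genes 0 led no vancomycin cell, and Ighv1-26, with 7 control cells, missed the minimum. The counts of 3 and 7 therefore do not compare the 2 directions. A subset was also counted without the plasma cells that held at least 2 UMIs of a short marker set of another class (Cd3d, Cd3e and Cd3g; P2ry12, Tmem119 and Sall1; Mog, Mag and Mobp; or a short B cell set), which are smaller sets than the marker lists above. This left 435 and 40 led cells, of which Ighv1-81 led 27.6% and 12.5%, Ighv1-66 12.4% and 0%, and Ighv1-19 4.37% and 32.5%.

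By family, which groups genes of like sequence, family 1 dominated both libraries, with 674 vancomycin cells (75.7%, 72.8 to 78.5) and 66 control cells (79.5%, 69.2 to 87.6). Of its 92 members 41 led a cell. Family 8 led 8.31% and 1.20% of led cells, and Ighv8-12 led 69 of the 74 vancomycin cells of the family. Family 2 was the one family with more than 20 cells in which the vancomycin share was lower beyond counting error, at 29 cells (3.26%, 2.19 to 4.65) against 8 (9.64%, 4.25 to 18.1), a ratio of 0.338 (0.151 to 0.856). Families 6 and 14 led 31 and 13 vancomycin cells (3.48% and 1.46%) and no control cell. Both shares lay below the exact control limit of 4.35%, so no fold is given. No member of families 10, 11, 12, 15 or 16 led a cell.

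Along chromosome 12 the functional V genes were divided into 3 groups of 38, 38 and 37 by distance from the J segments. The group nearest to J, 149 to 833 kb away, held 10.4% of the vancomycin cells led by functional genes and 17.6% of those of the control. The middle group held 27.6% and 52.7%, and includes Ighv1-19. The farthest group, up to 2570 kb away, held 62.0% and 29.7%, and includes Ighv1-81, Ighv1-66 and Ighv8-12. These positions are the same facts as the gene shares, set in order along the locus.

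Use was uneven in both libraries. The effective number of leading genes (the inverse of the chance that 2 cells drawn at random have the same gene) was 8.76 in the vancomycin library and 7.10 in the control, far below the 65 and 23 genes seen. The 10 most used genes led 72.4% and 81.9% of led cells, and Pielou evenness (1 for equal use) was 0.707 and 0.787. When each combination of heavy and light variable gene was counted once, the effective number was 50.6 (167 combinations) and 35.2 (33 combinations). The control value exceeds the 23 genes seen there, as this estimate can when few combinations share a gene.

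The isotype of a cell is the constant gene with at least 10 UMIs and 50% of constant UMIs. IgA made up 44.9% (41.7 to 48.1) of the 969 vancomycin plasma cells with an isotype and 46.2% (35.8 to 56.9) of the 93 control cells, shares closer together than their counting error. IgG2c was at 37.0% and 36.6%. IgG2b was at 16.4% (14.1 to 18.9) and 5.38% (1.77 to 12.1), and IgG1 at 0.929% (0.426 to 1.76) and 11.8% (6.05 to 20.2). IgM was called in 7 vancomycin cells and in no control cell, which allows up to 3.23% at a floor of 3 cells (3.89% by the exact interval); the 7 led IgM cells had 6 leading genes, with Ighv5-4 in 2 of them and Ighv1-14 and Ighv5-17 in 1 each.

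Counted over cells, gene use was more even in IgA than in IgG cells of both libraries. The effective number of genes was 14.0 in 372 led IgA cells and 5.99 in 498 led IgG cells of the vancomycin library, and 18.1 in 39 IgA cells and 3.51 in 43 IgG cells of the control. With combinations of heavy and light gene counted once, it was 49.96 in IgA and 36.7 in IgG cells of the vancomycin library. In the control it was 31.9 over 27 IgA combinations with 20 genes and 78.0 over 13 IgG combinations with 12 genes. Both control values exceed the genes seen. That of IgG rests on Ighv1-19 alone occurring more than once, so these values cannot order the control isotypes. In the vancomycin library Ighv1-81 led 20.2% (16.2 to 24.6) of IgA cells and 36.5% (32.3 to 40.9) of IgG cells. Ighv1-19 likewise led fewer IgA cells (3.23%, 1.68 to 5.57) than IgG cells (10.0%, 7.54 to 13.02). Ighv1-66 took near-equal shares of both, 11.3% and 11.4%, and so did Ighv8-12, 8.33% and 7.63%. Ighv1-4 and Ighv5-17 were on the IgA side, with 5.65% of IgA cells against 2.41% of IgG cells and 2.42% against 0.201%.

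In the control the IgG cells were led by Ighv1-19 in 22 of 43 (51.2%, 35.5 to 66.7), by Ighv1-26 in 6 and by Ighv1-81 in 5. Its IgA cells had no such leader: Ighv1-19, Ighv1-14 and Ighv1-81 led 5 of 39 each (12.8%, 4.30 to 27.4) and Ighv5-17 led 4. Summed with Ighv1-77, Ighv1-81 led 26.2% of the control IgA cells and 19.5% of the vancomycin ones, so its order between the libraries turned in IgA cells. All 7 led IgG1 cells of the control had Ighv1-19, and so had 5 of the 9 led IgG1 cells of the vancomycin library. Their light genes were not the same: the 7 control cells had Igkv1-117 and the 5 vancomycin cells Igkv3-2. Among the cells led by Ighv1-19, 81.5% of 27 control cells and 80.6% of 62 vancomycin cells were IgG. The summed IgG share of this gene was thus close in the libraries while its frequency was not. Its subclasses were less close, with overlapping intervals. IgG1 made up 25.9% of the control cells and 8.06% of the vancomycin cells, and IgG2b 0% and 12.9%.

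**Figure D2:**
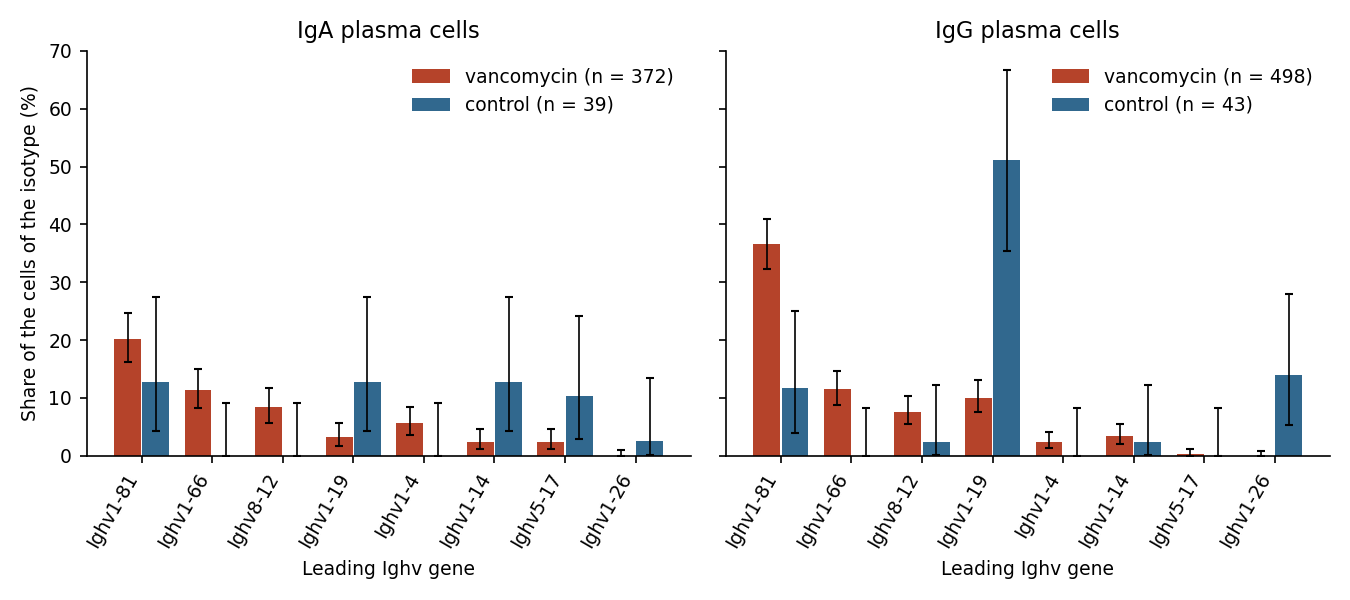
Share of the led IgA cells (left) and IgG cells (right) of each library (y axis, %) by leading gene (x axis), vancomycin in red and control in blue, with exact 95% intervals for counting error. Ighv1-81 reaches 36.5% of vancomycin IgG cells and Ighv1-19 51.2% of control IgG cells, while no gene exceeds 20.2% of the IgA cells of either library.

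The light chain variable gene of each cell was called by the same rule. Of the 167 combinations of heavy and light variable gene in 886 vancomycin cells, 80 had 2 or more cells and held 90.2% of the cells; in the control 13 of 33 combinations did, with 75.9% of 83 cells. The effective number of combinations was 25.8 and 8.26. Combinations seen in both libraries numbered 9, 5.39% of the vancomycin combinations and 27.3% of those of the control, but they held 327 vancomycin cells (36.9%) and 44 control cells (53.0%). A combination is not by itself a clone, because the junction sequences were not analysed here and each library pools 10 mice.

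The largest vancomycin combination was Ighv1-81 with Igkv8-30, in 103 cells, of which 57 were IgG2b, 33 IgA and 13 IgG2c. Its J segment was called in 78 cells (at least 3 UMIs and 50% of Ighj UMIs) and all 4 were used: Ighj1 in 28, Ighj2 in 23, Ighj3 in 18 and Ighj4 in 9. Of the 28 Ighj1 cells, 25 were IgG2b. In the control the same combination was in 8 cells, all with Ighj1, of which 4 were IgG2b, 3 IgA and 1 IgG2c. By these calls the combination had 4 J segments in 78 vancomycin cells and 1 in 8 control cells. The J calls here and below rest on few UMIs. The median number of Ighj UMIs was 4 in the vancomycin library and 7 in the control, and 290 and 16 led cells had no call. Whether different J calls mark separate rearrangements was not tested.

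Ighv1-81 with Igkv15-103 was in 71 vancomycin cells and 1 control cell. It differed from the Igkv8-30 combination in J segment and isotype: Ighj4 in 63 of 65 cells with a call, and IgG2c in 59 of 71. Ighv1-81 was seen with 12 light genes in the vancomycin library, Igkv8-30 accounting for 40.1% of its 257 vancomycin cells.

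Ighv1-19 with Igkv1-117 was the largest control combination (27 of 83 cells, 32.5%, 22.6 to 43.7) and the fourth of the vancomycin library (51 of 886, 5.76%, 4.32 to 7.50). The gene pair was the same, but the J segments were not: 21 of 22 control cells with a call had Ighj4 and 1 had Ighj3, while 24 of 31 vancomycin cells had Ighj2, 7 had Ighj3 and none had Ighj4. The control cells were 14 IgG2c, 7 IgG1 and 5 IgA, and the vancomycin cells 34 IgG2c, 10 IgA and 7 IgG2b. Combinations of heavy gene, light gene and J segment that occurred in both libraries numbered 4, of 147 in the vancomycin library and 30 in the control: Ighv1-81 with Igkv8-30 and Ighj1 (28 and 8 cells), Ighv8-12 with Igkv8-21 and Ighj4 (19 and 1), Ighv1-19 with Igkv1-117 and Ighj3 (7 and 1), and Ighv5-17 with Igkv1-110 and Ighj3 (1 and 1).

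Other frequent genes kept to 1 or a few light partners. Ighv8-12 was with Igkv8-21 in 67 of 69 vancomycin cells, of which 31 were IgA, 20 IgG2b and 16 IgG2c, and its 1 control cell had the same partner. Ighv6-6 was with Igkv3-2 in 24 of 27 cells, all 17 with a J call being Ighj4. Ighv1-4 was with Igkv1-135 in 22 of 33 cells; 19 of the 22 were IgA and all 19 with a J call were Ighj4. Ighv1-26 in the control was with Igkv6-13 in 7 of 7 cells, 6 of them IgG2c and 6 with Ighj3. At the other end, the 27 vancomycin cells of Ighv1-14 with a light gene had 9 light partners, and the 11 cells of Ighv5-17 had 6.

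Many combinations of 2 or more cells crossed isotypes, while the 87 vancomycin and 20 control combinations seen in a single cell cannot. The share to be expected from IgA at 44.9% of vancomycin and 46.2% of control cells was not tested. IgA and IgG cells occurred together in 45 of the 80 vancomycin combinations of 2 or more cells (56.2%) and in 7 of the 13 control ones (53.8%). With the J segment added, 36 of 62 and 4 of 8 did. Over all led cells with a J call, Ighj4 was the most used, at 43.0% (39.0 to 47.1) of 600 vancomycin cells and 47.8% (35.4 to 60.3) of 67 control cells, and Ighj2 was at 25% (21.6 to 28.7) and 7.46% (2.47 to 16.6).

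**Figure D3:**
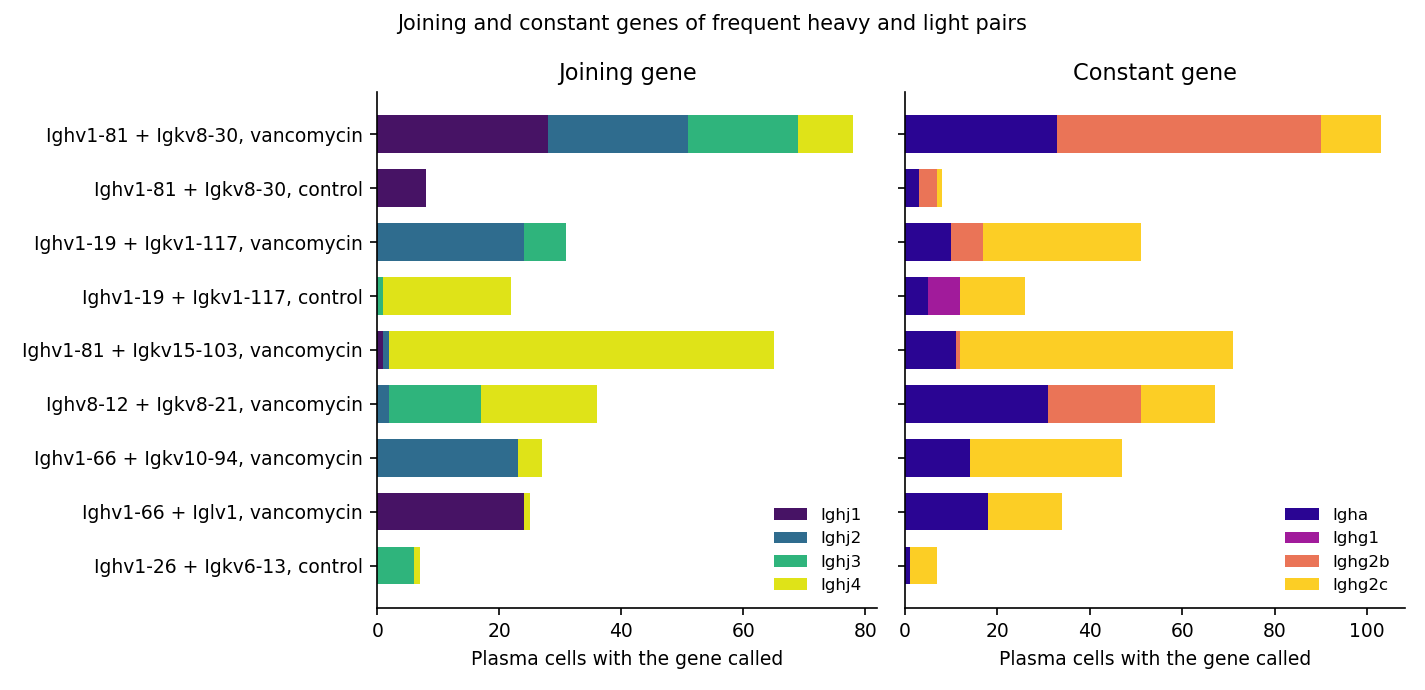
Plasma cells (x axis, number of cells with a call) of 9 frequent combinations of heavy and light variable gene, divided by J segment (left) and by constant gene (right). The bar of Ighv1-19 with Igkv1-117 is Ighj2 and Ighj3 in the vancomycin library and Ighj4 in 21 of 22 control cells, and that of Ighv1-81 with Igkv8-30 holds all 4 J segments in the vancomycin library and Ighj1 alone in the control.

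The number of UMIs that a leading gene yielded varied far more between genes than the constant gene UMIs of the same cells did. Per 100 heavy chain constant UMIs, the median cell had 294 UMIs of its leading gene in the vancomycin library (quartiles 126 and 814) and 814 in the control (398 and 1291). In the vancomycin library Ighv1-4 gave 35.4 and Ighv1-81 127, while Ighv8-12 gave 1074, Ighv1-9 1346 and Ighv2-2 1821. In raw UMIs the lowest, median and highest cell had 38, 190 and 329 for Ighv1-4, 11, 639 and 3810 for Ighv1-81, and 46, 8066 and 11926 for Ighv2-2, while the median constant UMIs of these cells were 485, 464 and 462. The cells of Ighv1-4 thus had constant RNA like the others but few V UMIs.

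In 4 genes with at least 3 led cells in each library the yield differed little: Ighv1-81 had 127 and 118 per 100 constant UMIs, Ighv1-14 827 and 799, Ighv5-17 1273 and 1349, and Ighv2-2 1821 and 1671. Ighv1-19 was apart, with 247 (quartiles 179 and 392) in 62 vancomycin cells and 822 (485 and 1272) in 28 control cells. Its median raw UMIs were 1116 and 3752. The yield also differed within a gene by light partner: Ighv1-66 gave 367 with Igkv10-94 (48 cells) and 1599 with Iglv1 (36 cells). The file headers name Cell Ranger 7.2.0 (vancomycin) and 6.0.1 (control), and the part of that difference in the yields was not tested.

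**Figure D4:**
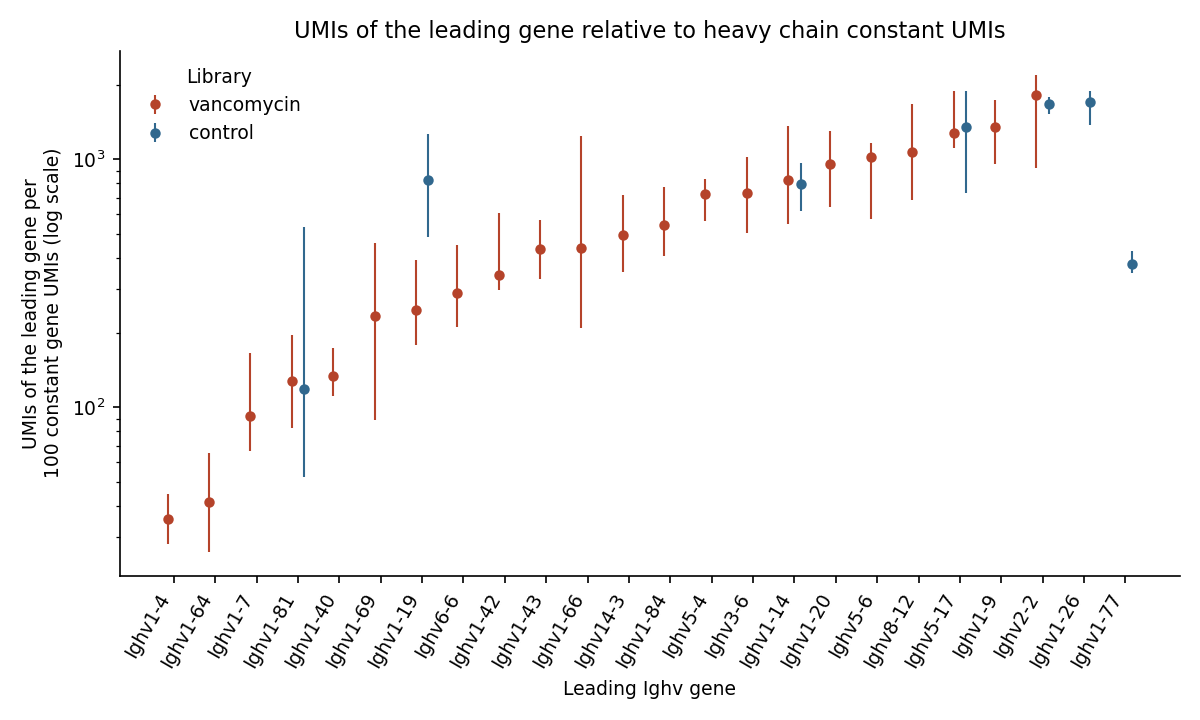
UMIs of the leading gene per 100 heavy chain constant UMIs (y axis, log scale) for genes leading at least 10 vancomycin cells or at least 3 control cells (x axis); points are medians over cells and bars run between the quartiles. The vancomycin medians run from 35.4 for Ighv1-4 to 1821 for Ighv2-2, and Ighv1-19 lies at 247 in the vancomycin library and 822 in the control.

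The order of genes by UMIs was not that by cells. Ighv1-81, which led 2.40 times the share of cells when counted apart from Ighv1-77, had nearly equal summed levels, 7221 CPM in vancomycin plasma cells and 7011 CPM in the control plasma cells. Ighv1-66 was at 12835 and 0 CPM, Ighv8-12 at 10766 and 2522, and Ighv1-19 at 3776 and 44924 CPM. Over all 11054 genes with at least 50 UMIs in both libraries together, 4.98% differed at least 2-fold, 4.11% with the higher level in vancomycin plasma cells and 0.868% with the lower, on the log2 ratio with 10 CPM added, around a median log2 ratio of 0.20. Of the 183 Ighv genes 100 reached that minimum, 26 of them with no control UMI and 1 with no vancomycin UMI; 53 were higher and 28 lower by that limit, from a log2 ratio of -6.38 (Ighv1-26) to 10.33 (Ighv1-66). Since a gene counted in 1 group of cells of 1 library passes the minimum through that library, these counts describe how far the libraries differed in which genes were used, not a change per cell. With 1 CPM added the counts were 61 and 29, and the other 4 settings of added CPM, minimum, scale and averaging gave 45 to 55 higher and 22 to 31 lower.

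Other genes of antibody-making cells were tested as lists by the same limit, which 4.98% of all 11054 genes passed. At that share a list this short may well hold none past it. None of the 16 genes of the secretory list, which build and fold antibody, was past 2-fold (median log2 ratio -0.05). Jchain, which joins IgA and IgM into polymers, was at 40251 and 43635 CPM and Xbp1, the transcription factor of the secretory state, at 853 and 1013 CPM. Inside that limit the list moved both ways. Pdia4 was at 478 and 727 CPM (ratio interval 0.625 to 0.690) and Hspa5 at 963 and 1380 CPM (0.674 to 0.723). Ssr4 was at 1475 and 1139 CPM (1.25 to 1.35) and Sec11c at 999 and 789 CPM (1.21 to 1.32). None of 8 measured genes of class switching and the germinal centre, none of 6 of V(D)J recombination, none of 3 factors that act on the octamer of Ighv promoters and none of 10 of homing and survival was past 2-fold. Of the octamer factors, Pou2af1 was at 119 and 105 CPM (ratio interval 0.998 to 1.29) and Pou2f2 at 60.2 and 39.4 CPM (1.25 to 1.89). The 10 CPM added to each level keeps genes at a few CPM inside that limit: Gcsam, a germinal centre gene, had 125 and 0 UMIs (5.03 and 0 CPM), and Xrcc4 (10.4 and 3.51 CPM; ratio interval 1.54 to 6.57) and Dclre1c (6.52 and 2.73 CPM; 1.13 to 6.04), both of DNA end joining, were higher in vancomycin plasma cells beyond counting error. Of the homing list, Itgb7, an integrin of gut homing, was at 28.2 and 53.4 CPM (ratio interval 0.439 to 0.639). Cd28 was at 31.9 and 58.9 CPM (0.455 to 0.650) and Ccr9 at 3.70 and 8.58 CPM (0.269 to 0.722). By summed UMIs all were lower in vancomycin plasma cells, while Tnfrsf13b was higher, at 128 and 91.7 CPM (1.22 to 1.60). The ratio intervals of this paragraph take UMIs as independent, although 1 cell can hold several. The 92 and 22 UMIs of Ccr9 came from only 4.10% and 3.16% of plasma cells, shares that ran the other way, so its direction is not settled. Cells with a UMI were 30.2% and 41.1% for Itgb7, 40.1% and 60% for Cd28, and 88.8% and 80% for Tnfrsf13b. Ccr10, a chemokine receptor of IgA plasma cells, was at 54.5 and 60.5 CPM. Of the lists of other cell types, 5 of 5 oligodendrocyte markers were at least 2-fold higher (Mbp 352 and 15.6 CPM), 1 of 6 T cell markers and 2 of 5 erythroid markers at least 2-fold lower; their part in these levels was not tested.

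Many cells had UMIs on a second Ighv gene as well as the leading one. Of the plasma cells with at least 10 Ighv UMIs, 51.7% (48.5 to 54.9) of 967 in the vancomycin library and 37.0% (27.1 to 47.7) of 92 in the control had a second gene at 10% or more of their Ighv UMIs. Of the 30 pairs of first and second gene seen in at least 3 cells of a library, 29 were within 1 family, beside a family 1 share of 75.7% and 79.5% of led cells, and in 9 the second gene was the nearest relative of the first by V exon identity. Free RNA accounts for an expected 2.15 and 1.08 Ighv UMIs in a plasma cell of median depth. Ighv1-77 was second in 161 of 268 vancomycin cells with Ighv1-81 first, at a median of 15.0% of their Ighv UMIs. Ighv1-39 was second in 40 of 40 cells with Ighv1-42 first, at 44.7%, and 13 of these cells passed the 50% needed to be led.

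The share on the second gene differed between light partners for some genes, and for 1 combination between the libraries. In cells led by Ighv1-66, Ighv1-84 held a median of 35.6% of Ighv UMIs with Igkv10-94 (48 cells, lowest 21.6%, highest 45.4%), 0.352% with Igkv5-48 (13 cells) and 0% with Iglv1 (36 cells, highest 0.0146%). The cells with Igkv10-94 and those with Iglv1 did not overlap. In cells led by Ighv1-19 with Igkv1-117, Ighv1-21-1 held a median of 16.2% in 51 vancomycin cells (quartiles 14.3% and 19.2%) and 0.0170% in 27 control cells (highest 3.39%). The control cells of this combination had Ighj4 in 21 of 22 calls and the vancomycin cells in 0 of 31. In cells led by Ighv1-81, the median on Ighv1-77 was 14.7% with Igkv15-103, 6.05% with Igkv6-14 and 39.2% with Igkv6-20 (7 cells). With Igkv8-30 it spread within the combination, from 0% to 46.4% in 103 vancomycin cells (median 10.1%, quartiles 1.07% and 15.1%) and up to 34.96% in 8 control cells (median 1.91%).

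Some of these cells passed or missed the 50% limit by the UMIs on the second gene. Ighv1-84 with Igkv10-94 was called in 15 vancomycin cells, with Ighj2 in 8 of 8 calls. Ighv1-66 with the same light gene was called in 48 cells, with Ighj2 in 23 of 27 calls. The 2 leading genes thus met the same light gene and J segment. Most of the 15 cells were far from the limit, however. Ighv1-66 held a median of 8.58% of their Ighv UMIs (quartiles 1.97% and 8.95%, highest 42.2%). In the control, Ighv1-77 was first in 9 cells, all with Ighv1-81 second at a median of 39.1%. When a leading gene needed 80% of the Ighv UMIs, 45.8% of vancomycin and 64.2% of control plasma cells had one; Ighv1-81 then led 9.17% and 3.28% of them and Ighv1-19 0.218% and 37.7%. The direction between libraries for Ighv1-81 and Ighv8-12 was the same under that rule, each with few control cells. The rule cannot test Ighv1-19, because UMIs of its Igkv1-117 cells were divided differently in the libraries. Ighv1-21-1 held medians of 16.2% (vancomycin) and 0.0170% (control) there, and Ighv1-25 11.2% and 6.79%. Ighv1-66 led no control cell under any setting, so its order could not turn. Whether the UMIs on a second gene came from its own RNA was not tested.

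**Figure D5:**
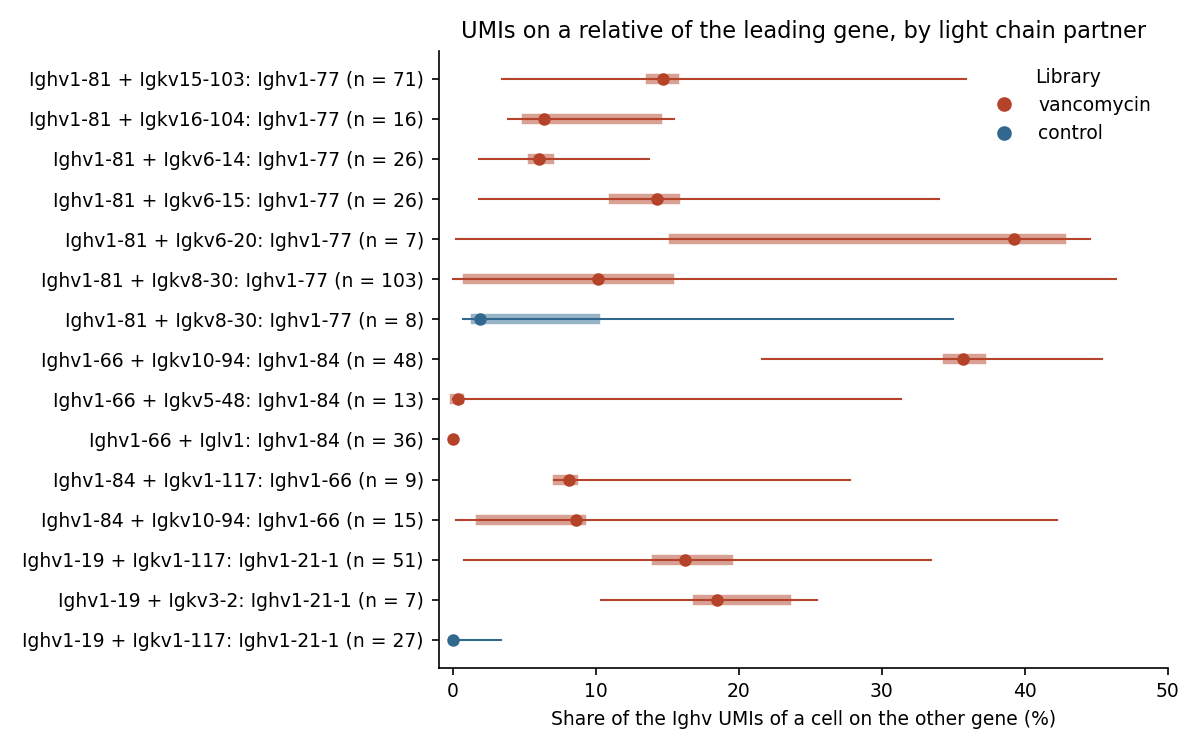
Share of the Ighv UMIs of a cell (x axis, %) on a named relative of its leading gene, for each combination with at least 5 cells; points are medians, thick lines quartiles and thin lines the full range, vancomycin in red and control in blue. Ighv1-84 holds 35.6% in cells of Ighv1-66 with Igkv10-94 and 0% in those with Iglv1, and Ighv1-21-1 holds 16.2% and 0.0170% in cells of Ighv1-19 with Igkv1-117 from the 2 libraries.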

How the data were processed

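The data were 10x 5′ single-cell RNA libraries, 1 per group. The authors deposited raw UMI counts per gene and cell, made with Cell Ranger 7.2.0 (vancomycin) and 6.0.1 (control) per the file headers; mm10 and Partek are named in the submitters' processing notes. The settings for introns and for calling cells were not given in the sources used here. Barcodes under 500 UMIs or 200 genes, or above 20% mitochondrial UMIs, were left out, and no doublet caller was run. Total depth was 144451114 and 25609899 UMIs in 16596 and 4272 barcodes.

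Plasma cells, leading genes and isotypes were called by UMI minimums as stated beside the results. The UMIs of a symbol on 2 rows were summed. Intervals are exact (Clopper-Pearson for shares, conditional for ratios) at 95%; a count of 0 was given a floor of 3 cells. Summed levels were scaled to CPM and compared as log2 ratios with 10 CPM added, for genes with at least 50 UMIs. The microglia and T cell rules for free RNA required at least 3 and 2 marker UMIs. The V exon identities, coordinates and biotypes come from GENCODE M21 (GRCm38). All 183 symbols matched. The promoter and recombination signal search that had been planned was not analysed here.

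The genes named were the 10 leading the most cells in each library, the 5 highest and 5 lowest ratios of share among genes leading at least 10 cells, and the 3 highest within IgA, IgM and IgG; relatives of these and light partners were named after their values were seen. The members, lists and tests were chosen with earlier results of these data known. The J segment rule, the draw of 80 cells, the 10% limit for a second gene and the sequence comparison were chosen after seeing the data. The scripts were tested on simulated data. Python 3.11.15, numpy 2.4.6, scipy 1.17.1, pandas 2.3.3 and Biopython 1.88 were used.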

Additional observations from a re-analysis of the deposited data

Results flagged for a closer look

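Ighv UMIs also appeared in cells that do not make antibody, and more often in the vancomycin library than in the control. At 1000 UMIs per cell, 11.0% (10.1 to 12.0) of 3946 vancomycin T cells and 4.19% (3.31 to 5.21) of 1816 control T cells had an Ighv UMI, with 30 and 69 shallower cells left out. Unthinned shares were 32.1% and 15.6% at median depths of 4385.5 and 5124 UMIs. In microglia the shares at 1000 UMIs were 6.66% (5.76 to 7.65) of 2794 and 4.25% (3.14 to 5.61) of 1107 cells, with 84 and 158 left out, and the unthinned shares 32.1% and 15.9% at median depths of 9275 and 5020 UMIs. Ighv stood at 91.9 and 39.2 CPM in T cells. Plasma cells made up 6.35% and 2.31% of the cells of these libraries and held 98.3% and 96.2% of all Ighv UMIs of the kept cells. A leading gene was called in 7 of the vancomycin T cells and 1 of the control T cells.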

How the results depend on the processing

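No paired analysis was possible because each group is 1 library. Of the alternatives, the effective number of leading genes was higher in the vancomycin library in 13 of 13, Ighv1-19 was lower there in 13 of 13 and Ighv1-66 higher in 13 of 13, while Ighv1-81 and Ighv8-12 were higher in 11 of 13. The exceptions are the counts of combinations. With each group of heavy gene, light gene and isotype counted once, the log2 ratios of share were -0.21 for Ighv1-81 and -0.093 for Ighv8-12; the effective number of genes was 36.5 and 24.6 (vancomycin, then control, here and below), the share of the 10 most used genes 43.3% and 69.0%, family 1 66.5% and 69.0%, IgA 49.1% and 64.3%, Ighv1-19 4.02% and 9.52%, and Ighv1-81 10.3% in the vancomycin library. With each pair of heavy and light gene counted once, chosen after seeing the data, the log2 ratios were -0.34 and -0.75, the effective number 50.6 and 35.2, the 10 most used genes 38.9% and 60.6%, family 1 62.3% and 66.7%, Ighv1-19 3.59% and 6.06%, and Ighv1-81 7.19% in the vancomycin library. Fewer units are counted under both settings, by construction, and the effective number of the control then exceeds its 23 genes seen.

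A leading gene of at least 80% of Ighv UMIs was found in 45.8% and 64.2% of plasma cells, and then Ighv1-81 led 9.17% and 3.28%; in the vancomycin library the effective number was 16.2, the 10 most used genes 68.8%, family 1 60.04% and Ighv1-19 0.218%. With no minimum share, 96.8% of plasma cells of either library were led. A minimum of 50 UMIs gave 86.6%, and thinning to 100 Ighv UMIs 94.0%, in the vancomycin library. The stricter plasma cell rule gave 5.56% plasma cells there, 91.4% of them led. Without cells that held markers of another class, plasma cells were 3.16% and 1.12%, IgA 50.8% and 57.8%, Ighv1-19 4.37% in the vancomycin library, and the control had 13 leading genes, of which the 10 most used led 92.5%. The cause of these differences was not tested. The log2 UMI level of Ighv1-66, with no control UMI, moved with the CPM added and is no bound. With the UMIs of 4 related pairs summed before the call (Ighv1-81 with Ighv1-77, Ighv1-66 with Ighv1-84, Ighv1-19 with Ighv1-21-1 and Ighv1-42 with Ighv1-39), chosen after seeing the data, 95.3% and 93.7% of plasma cells were led, the 10 most used genes led 75.8% in the vancomycin library, and Ighv1-81 led 28.3% and 22.5%, a log2 ratio of 0.33 in place of 1.26. Leaving out barcodes found in both libraries, chosen after seeing the data, moved none of the main values beyond counting error. Neither did merging genes at 97% identity, which joined none of those 4 pairs. The planned draw of 100 led cells could not be made for the control, which has 83, and its depth of 95 plasma cells limits every control share.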
